A study of Arabidopsis thaliana with 12 samples.

Results

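The UDP-glycosyltransferase (UGT) family was examined in roots of Arabidopsis thaliana seedlings that differ in their ARABIDILLO genes. The members were all probe sets of the Affymetrix ATH1 array whose only gene in the platform's gene table has a symbol of UGT followed by a digit, leaving out UGT72E1 and UGT72E3, with no condition on signal. This gave 45 of the 22746 probe sets that are not Affymetrix controls, 1 for each of 45 genes. Another 3 probe sets list a UGT gene together with a second gene (UGT73B2 with UGT73B3, UGT71D1 with AT2G29710, and UGT89B1 with AT1G73885) and were left out. All 45 symbols were the same in the RefSeq gene table of assembly TAIR10.1, which also gives the locus names shown, and no member's probe set carries a suffix that marks probes shared between transcripts.

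The study used 12 arrays of root RNA from 7-day-old seedlings, in 4 groups of 3. Col-0 and Col-3 are wild types. The ara1OX line carries 35S:Ara1YFP in the Col-0 background, a fusion of ARABIDILLO-1 to yellow fluorescent protein under the 35S promoter, which is active in most plant tissues, and ara1/2mut, a double mutant, has both ARABIDILLO genes mutated in Col-3. The ARABIDILLO proteins join an F-box to Armadillo repeats and are known to favour the formation of lateral roots, and the series looked for genes that depend on them. Seeds of all groups had 2 days of cold at 4 °C, and their seedlings were raised at 24 °C with 16 h of light on medium of 0.5 strength with 1% agar. The labels do not say how many transgenic lines or separate plantings the replicates came from, so a p-value covers only how much these arrays varied, a spread that may be technical. The levels of the ARABIDILLO genes themselves are not analysed here.

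UGTs move a sugar, mostly glucose from UDP-glucose, onto small molecules. In plants their acceptors include hormones, flavonoids, hydroxycinnamates, monolignols, glucosinolate precursors, sterols and foreign compounds, and the added sugar commonly makes the acceptor more soluble, less active or fit for storage in the vacuole. The family is named by sequence likeness, with a number and then a letter for a narrower group, and many UGT genes lie in tandem runs on the chromosomes. Here, subfamily is used for the genes that share a number, and group for those that also share a letter. In roots the family is known for conjugating auxin, cytokinin and abscisic acid and for glucosylating monolignols and stress metabolites.

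Values are MAS5 signals, a linear measure of hybridization per probe set, with every array scaled to the same trimmed mean. Signals of different probe sets depend on their probes and do not rank transcripts by amount. The mean correlation of an array with the others of its group ran from 0.913 to 0.963. It was lowest in ara1OX replicates 1 (0.913) and 3 (0.918), followed by ara1/2mut replicate 1 (0.926). In ara1OX replicate 3 the spiked-in hybridization controls were 4.64-fold the median array, against 0.659-fold to 1.94-fold in the other 11, so several ara1OX differences are also given without it. EXPA7 and EXPA18, expansin genes of root hairs, gave signals from 159 to 291 and from 187 to 344 over the 12 arrays, and JKD, a transcription factor gene of root ground tissue, from 30.01 to 92. Of 11 leaf markers only RCA, LHCB4.1 and SBPASE had a named probe set. RCA had 65.8 to 131 and LHCB4.1 74.7 to 228, and SBPASE was not kept for testing. The endodermis, root cap and root transport markers had no named probe set.

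The 45 members split almost evenly into those with and without a signal high enough to test in these roots. They are not the whole family, since the RefSeq gene table holds 58 protein-coding genes with a UGT symbol of this form. Probe sets were kept for testing when their mean log2 signal over the 12 arrays was at or above the 40th percentile of all probe sets, a signal of 22.4. By its placement this filter kept 13648 of the 22746 probe sets. Of the 45 members 23 were kept (51.1%), and the other 22 were not. Of the 45, 21 were at or above that signal in all 12 arrays, 14 in some arrays and 10 in none. The 22 members not kept had geometric mean signals from 1.16 (UGT76E1) to 19.7 (UGT76E2), 15 of them under 10, and their highest single signal was 38.9, in UGT71B5. UGT71B1 was kept narrowly, at 22.7. A low signal does not show that a gene is silent, and the members not kept are given as levels only.

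**Figure D1:**
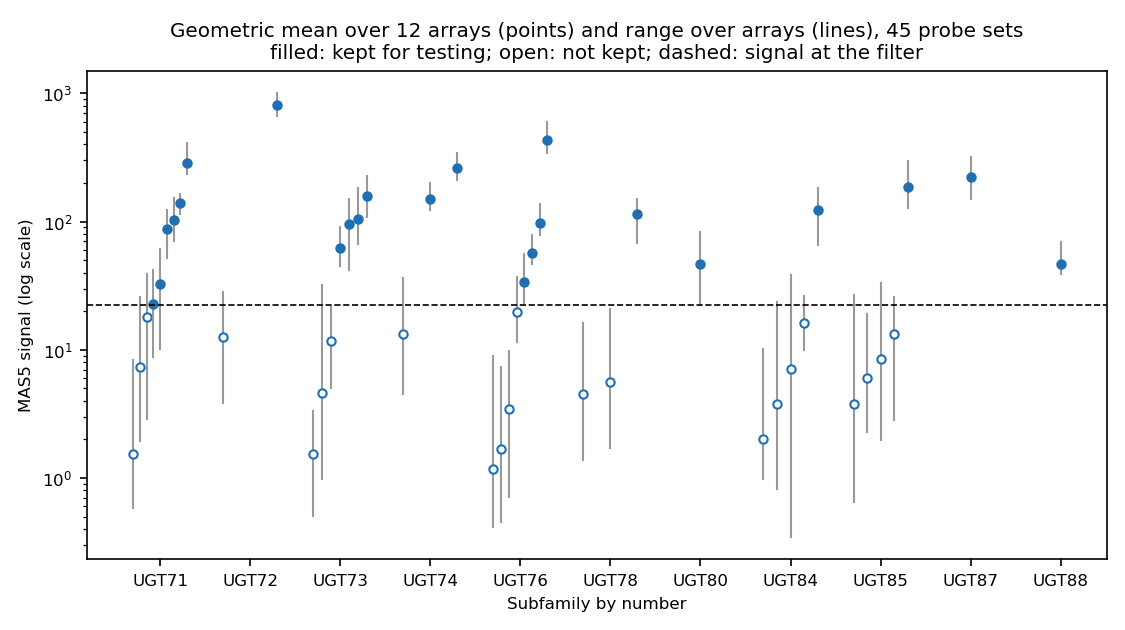
MAS5 signal (log scale) of the 45 UGT probe sets by subfamily number; points are geometric means over 12 arrays, lines run from the lowest to the highest array, and filled points were kept for testing. In UGT84 and UGT85, 1 of 5 probe sets lies above the dashed line at a signal of 22.4, against 6 of 9 in UGT71.

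The subfamilies differed in how many of their members were kept. In UGT71 it was 6 of 9, with all 5 members of the C group (UGT71C1 to UGT71C5) but only UGT71B1 of the 4 in the B group. In UGT73 it was 4 of 7, in UGT74 2 of 3, in UGT76 4 of 8, in UGT72 1 of 2 and in UGT78 1 of 3. In UGT84 and UGT85 it was 1 of 5 each, UGT84A4 and UGT85A2. The single members of UGT80, UGT87 and UGT88 were all kept. These counts are a description of probe set signals, and no difference between subfamilies was tested.

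Gene order gave a second view of the same split. With no other protein-coding gene between them, 24 members formed 10 runs of neighbours, where 4 runs had all members kept, 3 had none and 3 were mixed. The runs with all members kept were UGT71C5, UGT71C4 and UGT71C3, then UGT71C2 and UGT71C1, then UGT73B5 and UGT73B4, then UGT76C2 and UGT76C1. In the run UGT85A7, UGT85A2, UGT85A5 and UGT85A3, UGT85A2 was at or above the filter signal in 12 of 12 arrays, and the other members in 0, 1 and 2. On the chromosome this run also holds UGT85A1, which is not among the members, since the platform's gene table names no probe set by that symbol. In the run UGT84A1, UGT84A3 and UGT84A4, which encode enzymes that form glucose esters of hydroxycinnamates such as sinapate, the numbers were 1, 3 and 12. UGT73D1 was above it in 12 arrays and its neighbour UGT73C7 in 0. The runs with none kept were UGT84B2 and UGT84B1, UGT73C1 and UGT73C2, and UGT76E1 and UGT76E2.

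**Figure D2:**
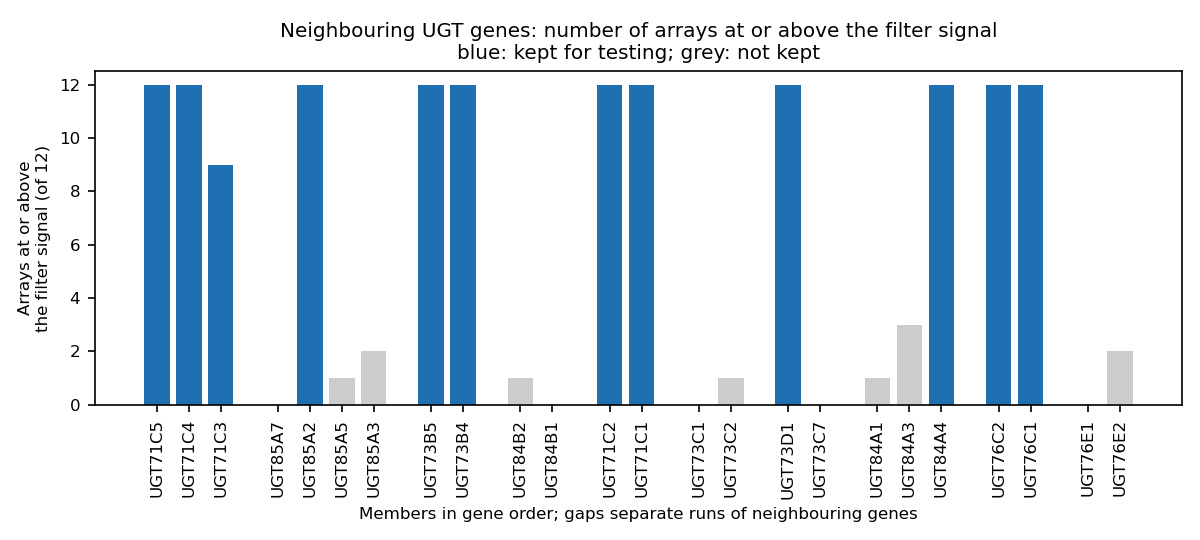
Number of the 12 arrays (vertical axis) in which each of 24 members in runs of neighbouring genes was at or above the filter signal of 22.4; blue bars were kept for testing, grey bars were not, and gaps separate the 10 runs. Within 1 run UGT85A2 reached 12 arrays and the other members at most 2, and UGT85A1 of the same run is not a member and not shown.

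None of the 23 members passed the test in any comparison. The test was limma's moderated test over all 13648 probe sets kept, with Benjamini-Hochberg adjustment and a threshold of 0.05, and none passed its moderated F test of any difference among the 4 genotypes either (smallest adjusted p 0.626 for ara1OX against Col-0, 0.999 for ara1/2mut against Col-3, 0.956 for Col-3 against Col-0 and 0.668 for the F test). Over all probe sets the share called was 0.022%, 0%, 0% and 0.044% in the same order, so few calls were made anywhere. With the unadjusted limma p at a threshold of 0.05 instead, 2, 1, 1 and 2 members passed, or 8.7%, 4.35%, 4.35% and 8.7% of the 23, against 6.43%, 3.56%, 5.08% and 7.03% of all probe sets, shares near the background. The root hair list, 2 of 7 genes tested, had log2 differences from 0.25 to 0.37 in ara1OX, 0.13 to 0.24 in the double mutant and -0.37 to -0.05 between the wild types, and JKD had -0.18, 0.47 and -0.13. The leaf list, 2 of 11 genes tested, had -0.02 to 0.01, 0.17 to 0.29 and 0.01 to 0.06. None of these passed, and their part in the members' values was not tested. In whole roots, fewer cells of a type and less RNA per cell cannot be told apart.

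Most tested members were measured well enough, given the spread of these arrays, to bound their change between groups. The 95% interval of the log2 difference lay between -1 and 1, a 2-fold change either way, in 17 of 23 members for ara1OX against Col-0, in 20 for ara1/2mut against Col-3 and in 19 for Col-3 against Col-0. The residual SD between replicates had a median of 0.33 on the log2 scale over the members and 0.28 over all probe sets. It ran from 0.12 in UGT72E2 to 0.79 in UGT71C3. This SD pools all 4 groups, so the SE of a comparison also carries the spread of groups outside it.

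**Figure D3:**
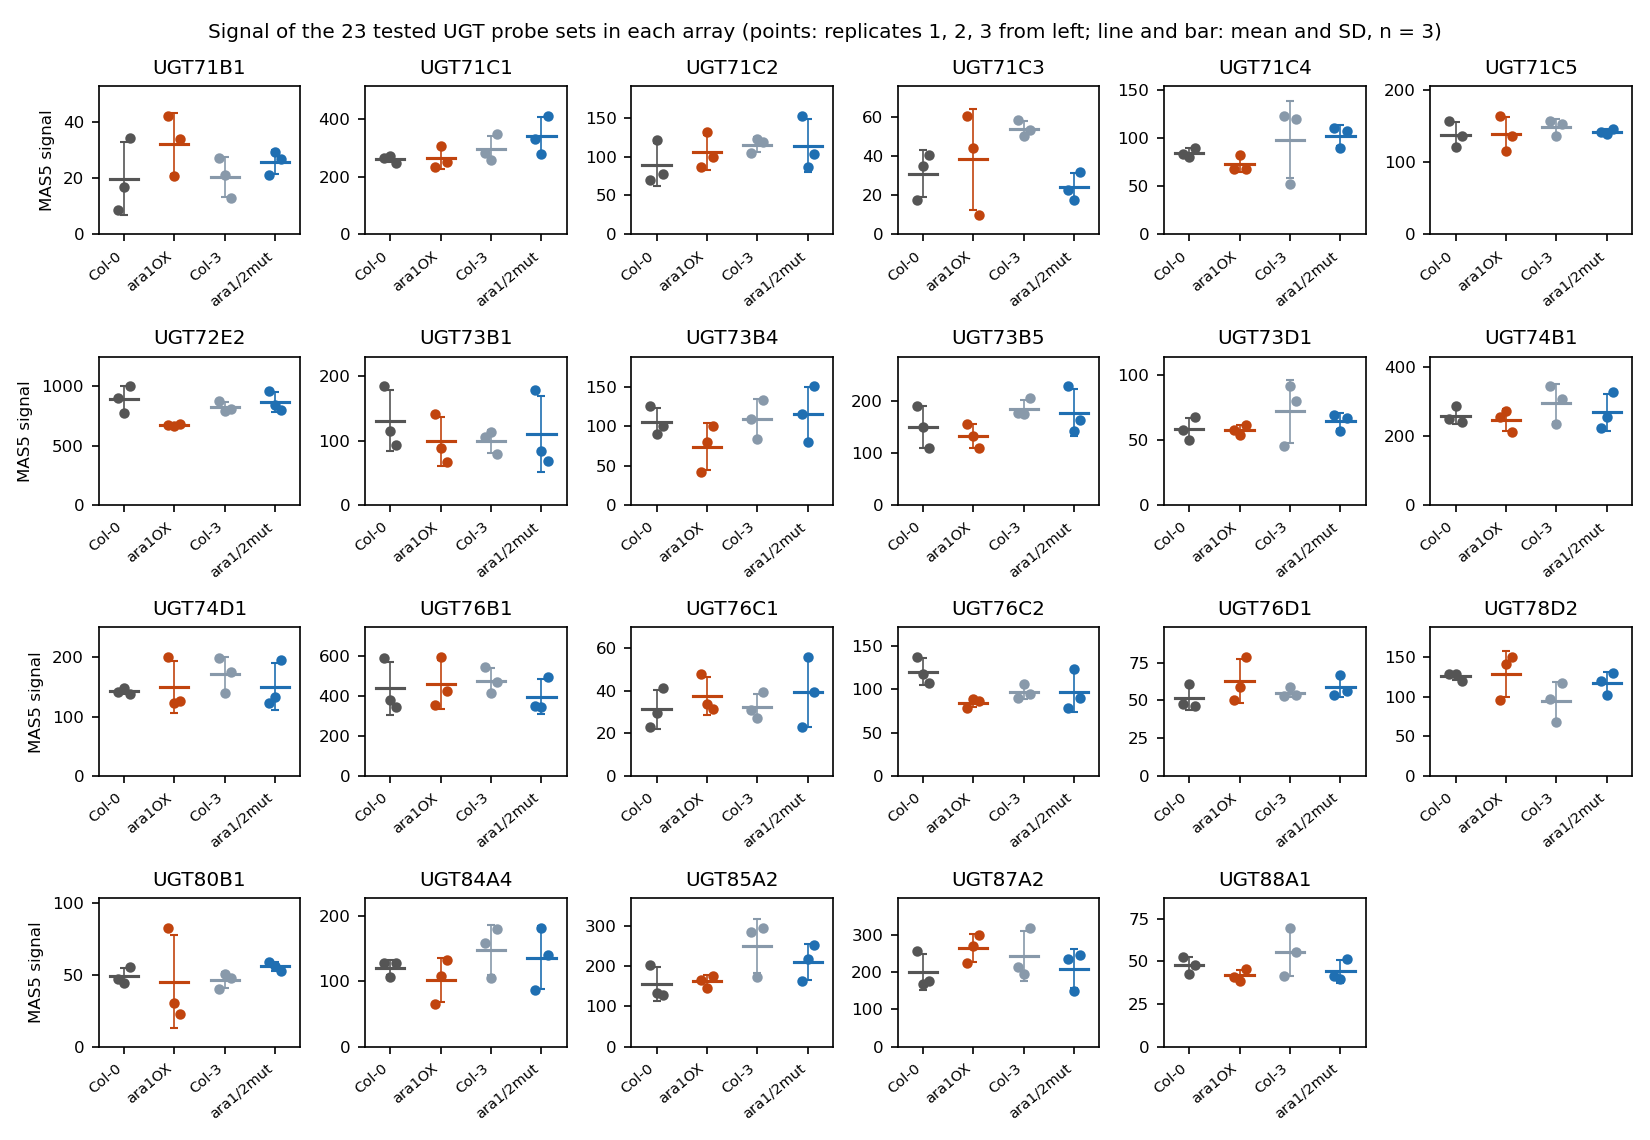
MAS5 signal (vertical axes, from 0) of the 23 tested members in each of the 12 arrays, with the mean and SD of each group of 3. The 3 ara1OX arrays of UGT72E2 lie below the 3 Col-0 arrays, and the 3 ara1/2mut arrays of UGT71C3 lie below the 3 Col-3 arrays.

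UGT72E2 (AT5G66690) encodes an enzyme that glucosylates the monolignols coniferyl and sinapyl alcohol. Its signals were 905, 776 and 999 in the Col-0 arrays, 671, 663 and 686 in those of ara1OX, 876, 792 and 811 in those of Col-3 and 964, 846 and 803 in those of ara1/2mut. All 3 ara1OX arrays were below all Col-0 arrays, and the other groups overlapped with Col-0. The group means were 893 ± 112, 673 ± 11.8, 826 ± 43.7 and 871 ± 83.3 (SD, n = 3). In ara1OX against Col-0 the log2 difference was -0.40 (SE 0.13, interval -0.69 to -0.11), with a limma p of 0.00926 and an adjusted p of 0.626. It was -0.41 (adjusted p 0.738) without ara1OX replicate 3. In ara1/2mut against Col-3 the difference was 0.07 (SE 0.13, adjusted p 0.999). UGT72B3, the other member of the subfamily here, had signals from 3.86 to 28 and was not kept.

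The UGT76 subfamily holds the cytokinin N-glucosyltransferase genes UGT76C1 (AT5G05870) and UGT76C2 (AT5G05860), which are neighbours. UGT76C2 had signals of 137, 118 and 107 in the Col-0 arrays, 78.4, 88.9 and 87.1 in those of ara1OX, 90.3, 106 and 94.4 in those of Col-3 and 78.3, 124 and 89.7 in those of ara1/2mut. Col-0 stood above both ara1OX and Col-3 with no overlap, while ara1/2mut overlapped with each of the others. In ara1OX against Col-0 the log2 difference was -0.50 (SE 0.19, limma p 0.0179, adjusted p 0.662), and -0.52 (adjusted p 0.789) without ara1OX replicate 3. In Col-3 against Col-0, which uses the same Col-0 arrays, it was -0.31 (SE 0.19, adjusted p 0.968). UGT76C1 had signals of 23.1, 29.6 and 41.3 in the Col-0 arrays, 47.9, 33.7 and 31.3 in those of ara1OX, 30.7, 27.1 and 39.3 in those of Col-3 and 23.1, 55.7 and 39.4 in those of ara1/2mut, and all 4 groups overlapped. Its log2 differences were 0.28 (SE 0.35) in ara1OX and 0.21 (SE 0.35) in the double mutant, where UGT76C2 had -0.02 (SE 0.19).

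UGT76B1 (AT3G11340) encodes an enzyme that glucosylates isoleucic acid, salicylic acid and N-hydroxypipecolic acid, which act in plant defence. Its signals were 592, 381 and 345 in the Col-0 arrays, 356, 595 and 427 in those of ara1OX, 543, 416 and 470.3 in those of Col-3 and 349.6, 343 and 497 in those of ara1/2mut. The groups overlapped in each comparison, and the lowest mean was that of ara1/2mut. Its log2 differences were 0.07 (SE 0.23) in ara1OX, -0.28 (SE 0.23) in the double mutant and 0.15 (SE 0.23) between the wild types. UGT76D1 (AT2G26480), whose enzyme glucosylates dihydroxybenzoic acids, had signals from 46.5 to 78.5 and log2 differences of 0.27, 0.09 and 0.10 in the same order. The 4 members of the E group, UGT76E1, UGT76E2, UGT76E11 and UGT76E12, were not kept, and UGT76E2, the nearest of them by mean signal, had 2 of 12 arrays at or above the filter signal.

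In UGT71 all C members and 1 B member were tested. UGT71C5 (AT1G07240) encodes an enzyme that glucosylates abscisic acid, and its signals were 156, 121 and 136 in the Col-0 arrays, 164, 115 and 135 in those of ara1OX, 156, 136 and 153 in those of Col-3 and 141, 139 and 146 in those of ara1/2mut. After UGT72E2 it had the smallest spread between replicates, with a residual SD of 0.17 and log2 differences of -0.00 (SE 0.17) in ara1OX and -0.06 (SE 0.17) in the double mutant, so that a change beyond -0.42 or 0.35 lay outside both intervals. UGT71B6, which encodes another abscisic acid glucosyltransferase, was at or above the filter signal in 0 of 12 arrays. UGT71C1 (AT2G29750) had signals of 265, 271 and 249 in the Col-0 arrays, 235, 308 and 250.5 in those of ara1OX, 284, 258 and 348 in those of Col-3 and 332, 279 and 412 in those of ara1/2mut. Its highest array was in ara1/2mut, but ara1/2mut and Col-3 overlapped, with a log2 difference of 0.19 (SE 0.17, adjusted p 0.999). UGT71C2 (AT2G29740), its neighbour, had 0.40 (SE 0.24) in Col-3 against Col-0, and UGT71C4 (AT1G07250) had log2 differences of -0.22 in ara1OX, 0.16 in the double mutant and 0.11 between the wild types.

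UGT71C3 (AT1G07260), in the same run as UGT71C4 and UGT71C5, was the most variable tested member. Its signals were 17.4, 35.1 and 40.3 in the Col-0 arrays, 60.7, 44.2 and 10.1 in those of ara1OX, 58.3, 50.3 and 53.3 in those of Col-3 and 22.5, 17.4 and 32.1 in those of ara1/2mut. All Col-3 arrays were above all ara1/2mut and all Col-0 arrays, and the ara1OX arrays ran from the lowest to the highest of the 12. For UGT71C3 that spread enters the SE of every comparison. In ara1/2mut against Col-3 its log2 difference was -1.21 (SE 0.53, interval -2.34 to -0.09, limma p 0.0367, adjusted p 0.999). In Col-3 against Col-0, which shares the Col-3 arrays, it was 0.89 (SE 0.53, adjusted p 0.968), and 0.52 without Col-0 replicate 1. In ara1OX it was 0.05 (SE 0.53), 0.83 without replicate 3 and -0.46 without replicate 1. It was at or above the filter signal in 9 of 12 arrays, and 90.8% of the 1000 probe sets nearest to it in mean signal had a smaller residual SD. UGT71B1 (AT3G21750), the tested member nearest to the filter, had 8.77, 16.7 and 34.2 in the Col-0 arrays, 42.3, 20.8 and 34 in those of ara1OX, 27.1, 21.3 and 12.9 in those of Col-3 and 21.2, 29.4 and 27 in those of ara1/2mut. It had the highest log2 difference of the 23 tested members in ara1OX, 0.86, but with an SE of 0.49 and overlapping groups (adjusted p 0.828). The value was 0.38 without Col-0 replicate 1, and without ara1OX replicate 3 the probe set missed the filter. UGT71B5 and UGT71B8 were not kept, with signals from 2.86 to 38.9 and from 1.96 to 25.7.

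In UGT73 all 4 tested members had log2 differences below 0 in ara1OX against Col-0, where 44.6% of all probe sets were above 0, and none passed. UGT73D1 (AT3G53150), at -0.01, moved to 0.02 with quantile normalization, and UGT73B5 (AT2G15480) to 0.04 without Col-0 replicate 1. UGT73B4 (AT2G15490) and UGT73B5 are neighbouring genes known to respond to pathogens and oxidative stress. UGT73B4 had signals of 126, 90.6 and 100.03 in the Col-0 arrays, 41.8, 80.7 and 100.3 in those of ara1OX, 109.5, 83.9 and 134 in those of Col-3 and 115, 80.3 and 151 in those of ara1/2mut. Of the ara1OX arrays 2 lay below the Col-0 range and 1 inside it, and the log2 difference was -0.58 (SE 0.30, adjusted p 0.808), the lowest of the 23 tested members in that comparison. It was -0.85 (adjusted p 0.738) without ara1OX replicate 3 and -0.22 without ara1OX replicate 1. UGT73B5 had 190.3, 149.6 and 109 in the Col-0 arrays, 156, 132 and 109.8 in those of ara1OX, 177, 174 and 205 in those of Col-3 and 228, 142 and 163 in those of ara1/2mut, with log2 differences of -0.15 (SE 0.22) in ara1OX, -0.09 (SE 0.22) in the double mutant and 0.34 (SE 0.22) between the wild types. All groups of both genes overlapped within each comparison.

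UGT73B1 (AT4G34138) had signals of 184, 115 and 94 in the Col-0 arrays, 141, 88 and 67.1 in those of ara1OX, 105, 113 and 79 in those of Col-3 and 178, 84.7 and 68.3 in those of ara1/2mut. Replicate 1 was the highest array in Col-0, ara1OX and ara1/2mut but not in Col-3, and 97.7% of the 1000 probe sets nearest in mean signal had a smaller residual SD. Its log2 differences were -0.42 (SE 0.35), 0.05 (SE 0.35) and -0.36 (SE 0.35) in ara1OX, ara1/2mut and Col-3. The ara1OX value was -0.17 without ara1OX replicate 3 and -0.71 without ara1OX replicate 1. UGT73D1 had 57.8, 50.5 and 67.7 in the Col-0 arrays, 58.2, 54 and 62 in those of ara1OX, 45.4, 91.5 and 79.9 in those of Col-3 and 69.5, 57.5 and 67 in those of ara1/2mut, and its difference was -0.01 (SE 0.25) in ara1OX. UGT73C1, whose enzyme can attach glucose to cytokinins, was not above the filter signal in any array, with a highest signal of 3.31, while UGT73C2 and UGT73C7 reached 32.1 and 21.7.

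UGT74B1 (AT1G24100) encodes the S-glucosyltransferase that acts on thiohydroximates in the core of glucosinolate synthesis. Its signals were 248, 288 and 240.4 in the Col-0 arrays, 255, 272 and 212 in those of ara1OX, 344, 236 and 306 in those of Col-3 and 223, 254 and 328 in those of ara1/2mut, and the groups overlapped throughout. The log2 differences were -0.08 (SE 0.18) in ara1OX and -0.14 (SE 0.18) in the double mutant. UGT74D1 (AT2G31750), which encodes a glucosyltransferase of auxins and their oxidized forms, had signals of 142, 149 and 138 in the Col-0 arrays, 200.5, 123 and 127 in those of ara1OX, 199, 139 and 176 in those of Col-3 and 124, 132 and 196 in those of ara1/2mut. Its log2 differences were 0.03 (SE 0.22) in ara1OX and -0.20 (SE 0.22) in the double mutant, with adjusted p-values of 0.994 and 0.999. The other auxin-linked members, UGT84B1 and UGT84B2, whose enzymes form glucose esters of auxin, were not kept, nor was UGT74F1, which encodes a salicylate glucosyltransferase. UGT74F1 had signals from 4.49 to 36.4, UGT84B1 from 0.987 to 10.2 and UGT84B2 from 0.347 to 38.

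Of the flavonoid members, the glucosyltransferase gene UGT78D2 (AT5G17050) was kept, and the rhamnosyltransferase gene UGT78D1 and the arabinosyltransferase gene UGT78D3 were not, with highest signals of 16.1 and 21. UGT78D2 had 129, 129 and 120.0 in the Col-0 arrays, 96.1, 142 and 149.9 in those of ara1OX, 97.2, 68.4 and 118 in those of Col-3 and 119, 102 and 130.2 in those of ara1/2mut. All Col-3 arrays were below all Col-0 arrays, with a log2 difference of -0.45 (SE 0.22, limma p 0.0546, adjusted p 0.956), and -0.23 without Col-3 replicate 2. In ara1/2mut against the same Col-3 arrays it was 0.34 (SE 0.22, adjusted p 0.999), or 0.13 without Col-3 replicate 2, and in ara1OX 0.01 (SE 0.22). The sterol glucosyltransferase gene UGT80B1 (AT1G43620) had 47.5, 44.5 and 55.8 in the Col-0 arrays, 82.8, 30.7 and 22.7 in those of ara1OX, 40.01, 50.6 and 48.2 in those of Col-3 and 59.2, 56.5 and 52.6 in those of ara1/2mut. The ara1/2mut arrays were above the Col-3 arrays with no overlap, by a log2 difference of 0.28 (SE 0.36, adjusted p 0.999), and 0.18 without Col-3 replicate 1. In ara1OX its difference was -0.34 (SE 0.36), 0.04 without replicate 3 and -0.90 without replicate 1, and the 3 ara1OX arrays were spread widely. That spread also enters the SE of ara1/2mut against Col-3.

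UGT84A4 (AT4G15500) had signals of 128, 107 and 128 in the Col-0 arrays, 66, 108 and 132 in those of ara1OX, 159, 105 and 180.2 in those of Col-3 and 86.3, 182 and 140.4 in those of ara1/2mut, with log2 differences of -0.30 (SE 0.29) in ara1OX and -0.15 (SE 0.29) in the double mutant. The first was -0.52 without ara1OX replicate 3 and -0.01 without ara1OX replicate 1. UGT85A2 (AT1G22360) had 204, 133 and 128 in the Col-0 arrays, 165, 146 and 176 in those of ara1OX, 284, 173 and 295 in those of Col-3 and 164, 217 and 253 in those of ara1/2mut. Of the Col-3 arrays 2 were above every Col-0 array and the third was inside their range. Its log2 difference in Col-3 against Col-0 was 0.69 (SE 0.23, interval 0.19 to 1.19, limma p 0.00991, adjusted p 0.956). Over the alternatives run it stayed between 0.55 and 0.94, and its lowest adjusted p was 0.111, with array weights. In ara1/2mut against Col-3 it was -0.23 (SE 0.23).

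UGT87A2 (AT2G30140), a gene linked to flowering time in Arabidopsis, had signals of 256, 168 and 176 in the Col-0 arrays, 225, 270.4 and 301 in those of ara1OX, 215, 196 and 319 in those of Col-3 and 234, 149 and 246 in those of ara1/2mut. The groups overlapped, with log2 differences of 0.42 (SE 0.23, limma p 0.0893, adjusted p 0.823) in ara1OX and -0.22 (SE 0.23, adjusted p 0.999) in the double mutant. Without ara1OX replicate 3 the ara1OX value was 0.33. UGT88A1 (AT3G16520) had signals from 38.7 to 69.6 over the 12 arrays, and differences of -0.19 (SE 0.24) and -0.31 (SE 0.24).

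Over the family, ara1OX against Col-0 had 11 members above 0 and 12 below, with a median log2 difference of -0.00 over the 23 members and -0.03 over all probe sets. With quantile normalization it was 0.02, with 12 members above 0, and with median centring -0.02, with 9. The differences ran from -0.58 (UGT73B4) to 0.86 (UGT71B1), and 20 of 23 were within 0.5 of 0. The groups of 2 members did not overlap, UGT72E2 and UGT76C2, both lower in ara1OX, or 8.7% against 11.4% of all probe sets in either direction and 6.57% lower. Both also made up the 2 members at an unadjusted limma p under 0.05 and lower, 8.7% against 4.09%. The medians of the subfamilies with at least 3 tested members were 0.03 in UGT71, -0.28 in UGT73 and 0.17 in UGT76. The 2 tested members of UGT74 lay at -0.08 and 0.03.

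In ara1/2mut against Col-3, 10 members lay above 0 and 13 below, with a median of -0.05 against 0.01 over all probe sets, 51.6% of which were above 0. All but UGT71C3 were within 0.5 of 0, from -0.31 (UGT88A1) to 0.39 (UGT71B1). The groups of 2 members did not overlap, UGT71C3 (lower) and UGT80B1 (higher), 8.7% against 9.1% of all probe sets (4.02% lower and 5.08% higher). The subfamily medians were 0.06 in UGT71, -0.02 in UGT73 and 0.04 in UGT76, each within 0.1 of 0.

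Between the wild types the members leaned one way. In Col-3 against Col-0, 18 of 23 members lay above 0, 78.3% against 49.6% of all probe sets, and the median was 0.17 against -0.00. All 6 tested members of UGT71 were above 0 with the signals as deposited, median-centred or quantile-normalized, although UGT71B1 moved to -0.30 without Col-0 replicate 1. Their median was 0.18, and above 0 were also 3 of 4 in UGT73 (median 0.14) and 3 of 4 in UGT76 (median 0.09). The mean log2 signal over the 23 members was 6.73 ± 0.03 in Col-0 and 6.88 ± 0.11 in Col-3 (SD over arrays, n = 3). It was 6.69 ± 0.07 in ara1OX and 6.82 ± 0.10 in ara1/2mut, so that both groups of the Col-3 background had the higher means. Single arrays overlapped, with 6.752 in Col-3 replicate 2 and 6.747 in ara1/2mut replicate 2 against 6.753 in Col-0 replicate 1. The median over the members did not separate the wild types this way. Its values were 7.01, 6.88 and 6.74 in the Col-0 arrays and 6.77, 6.73 and 6.90 in those of Col-3. They were 6.44, 6.76 and 6.65 in ara1OX and 6.90, 6.68 and 7.02 in ara1/2mut. The 23 members were measured on the same arrays and are not independent, and no test of the lean was made. Over fits that left out 1 array the median stayed between 0.10 and 0.21, and it was 0.16 after median centring and 0.14 after quantile normalization. The groups of 3 members did not overlap, UGT71C3 (higher), UGT76C2 and UGT78D2 (lower), 13% against 13.2% of all probe sets (6.05% higher and 7.1% lower). Beside this stands the ratio of 3' to 5' signal of GAPDH, a sign of RNA quality, which ran from 0.753 to 0.984 in Col-3 and from 0.879 to 1.14 in Col-0, and its part in the lean was not tested.

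**Figure D4:**
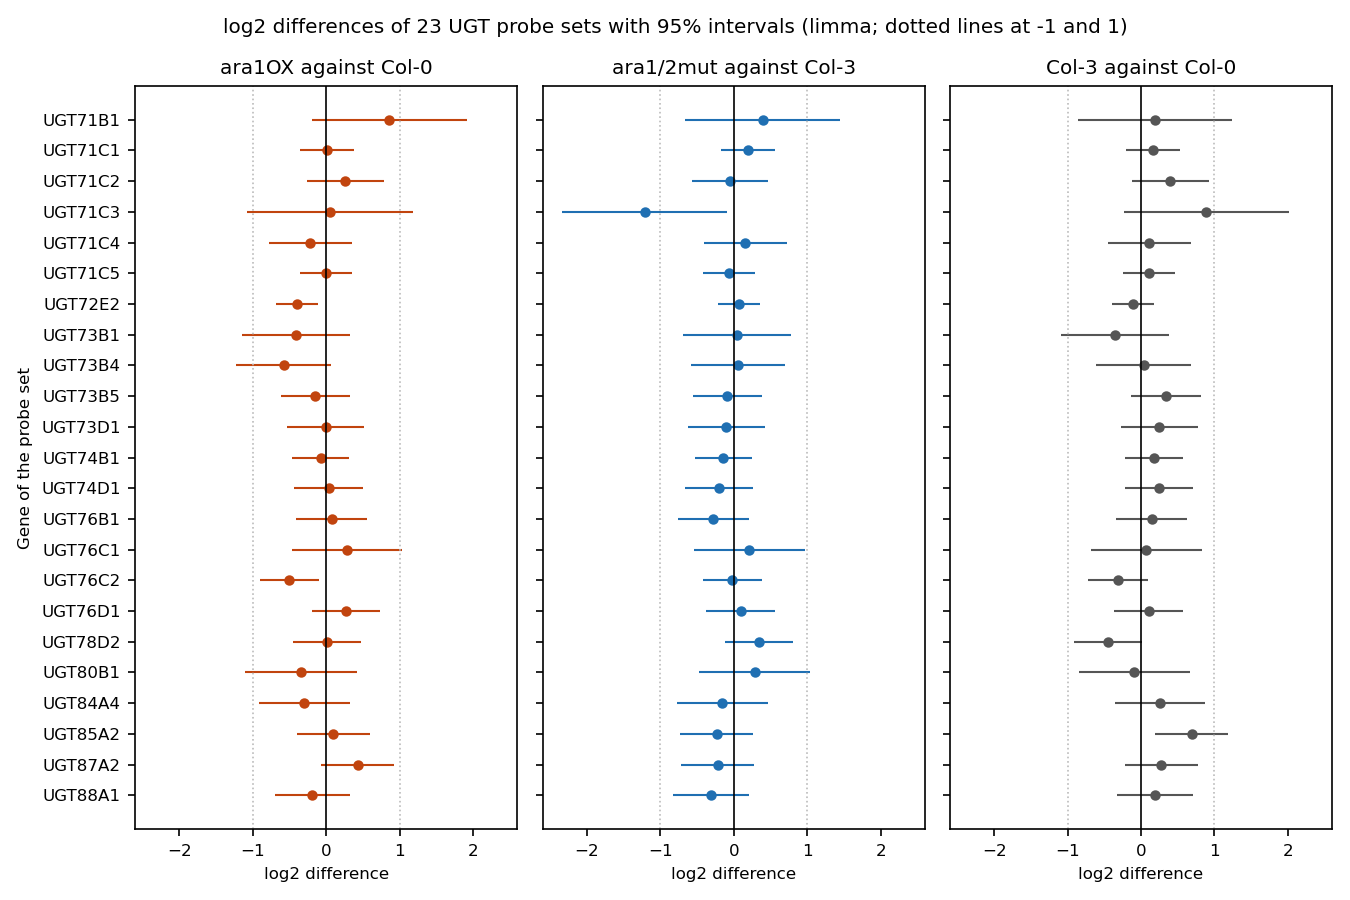
Log2 differences (points) with 95% intervals (lines) of the 23 tested members in 3 comparisons, from limma, ordered by subfamily; dotted lines mark -1 and 1. Most intervals cross 0, and 18 of 23 points lie right of 0 in Col-3 against Col-0.

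The change in ara1OX was set against the change in ara1/2mut as the contrast between both comparisons, and none of the 23 members passed, where 0.0147% of all probe sets did. A single member had an unadjusted limma p under 0.05, 4.35% against 5.3%. The count was 5 of 23 with array weights, a larger share than the 8.13% of all probe sets in that fit. It was 3 without ara1OX replicate 1 or 3, and 0 without Col-0 replicate 3. In the main analysis it was UGT72E2, with -0.47 (SE 0.19, limma p 0.0247, adjusted p 0.905). The next by p were UGT87A2 at 0.64 (SE 0.33), UGT76C2 at -0.49 (SE 0.27), UGT71C3 at 1.26 (SE 0.75) and UGT73B4 at -0.64 (SE 0.43), with adjusted p-values from 0.915 to 0.917. Without ara1OX replicate 3 the value of UGT71C3 became 2.04 (adjusted p 0.630), and without ara1OX replicate 1 it became 0.75. UGT73B4 became -0.28 without ara1OX replicate 1, and without ara1/2mut replicate 2 UGT87A2 became 0.41 and UGT76C2 -0.30. Precision was lower here, and 10 of 23 intervals lay between -1 and 1. In the F test over the 4 genotypes the smallest p-values were 0.0339 for UGT85A2 and 0.0357 for UGT72E2 (adjusted p 0.668 and 0.673).

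Genes that supply UDP-sugars, make or carry the acceptors or cleave glucosides were listed beside the family, 99 genes in 7 lists, of which 8 had a named probe set and 5 were kept. None of the 5 passed in any comparison. USP, whose enzyme makes UDP-sugars from sugar phosphates, had a log2 difference of 0.37 (SE 0.17, adjusted p 0.744) in ara1OX and 0.16 (SE 0.17) in the double mutant. HCT, an enzyme gene of the monolignol route that ends in the acceptors of UGT72E2, had 0.21 (SE 0.20) and 0.00 (SE 0.20). The glutathione transferase gene GSTU25 had 0.00 (SE 0.39) and -0.60 (SE 0.39). Among beta-glucosidase genes, which encode enzymes that remove sugars again, the root gene BGLU23 (PYK10) had 0.35 (SE 0.25) and 0.23 (SE 0.25), and BGLU46, whose enzyme cleaves monolignol glucosides, had -0.22 (SE 0.19) and 0.33 (SE 0.19). The flavonoid gene DFR and the genes BGLU33 and BGLU45 were not kept, and the glucosinolate and cytokinin lists had no named probe set.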

How the data were processed

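The authors deposited 1 table of intensities on a linear scale, 1 column per array, made with MAS5 per the submitters' notes on processing. Version, target value and detection calls of MAS5 are not given in the sources. In the deposited table the mean after trimming 2% of values at both ends was the same, to 3 digits, in all arrays, which hides any shift shared by all transcripts. Here, 64 control probe sets were left out, signals were taken as log2 without further normalization, and 13648 of 22746 probe sets with a mean log2 signal of at least 4.49 were tested. All 12 arrays entered 1 limma 3.58.1 fit (R 4.3.3) with a coefficient per group and a variance trend, 8 residual and 7.49 prior degrees of freedom, two-sided tests and Benjamini-Hochberg adjustment. The procedure was run on simulated data with independent noise and planted changes of 2-fold or more. Most differences reported here are smaller, and the simulation did not cover them. The number of arrays limits the precision.

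Members and lists were chosen with earlier results of these data known. Members named with values were, per comparison, up to 5 of smallest p with groups that do not overlap (for the contrast of changes, of smallest p), the 6 of highest mean signal, the highest and lowest of each subfamily with 3 or more tested, the 3 of largest residual SD, and the role groups. The other tested members, UGT71C2, UGT71C4, UGT76D1 and UGT88A1, fall outside this rule. Gene names came from the platform table and order from TAIR10.1. Deviations of arrays with the same number had a median correlation of 0.13, against -0.04 between arrays of different number, though not every pair deviated together. The labels do not say what a number stands for. The main fit used no block, and a fit with one was run as an alternative. As alternatives, arrays were left out in turn, weighted, median-centred or quantile-normalized. The filter was dropped or raised to the 60th percentile, 16 was added to each signal, the variance trend was dropped, contrasts were fitted on their own groups, and the replicate number was used as a block. No sequence is shown.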

Additional observations from a re-analysis of the deposited data

How the results depend on the processing

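No member passed in any of the alternatives run, in any of the 4 contrasts or the F test, and the range over fits that left out 1 array was 0 to 0. Over all probe sets, array weights gave 15 calls in ara1OX against Col-0, 4 in ara1/2mut against Col-3 and 65 in the F test, against 3, 0 and 6. The fit of only the groups compared gave 5 in ara1OX. For the change in ara1OX against that in ara1/2mut, 2 calls became 1 with median centring and 0 with no variance trend. With the replicate number as a block, ara1OX had 17 calls and the F test 56, none of them members. The correlations of deviations between arrays of the same number ran from -0.08 to 0.33, 10 of 18 over 0.1, with a median of 0.13 against -0.04 between arrays of different number, and 8 of 12 arrays correlated best with their own number. This hints at something shared by number, which the labels do not give, but not every pair was over 0.1 and the numbers were not taken as pairs. Leaving out 1 array gave 3 to 13 calls in ara1OX (13 without ara1OX replicate 2, 7 without ara1/2mut replicate 1 and 5 without ara1OX replicate 3), 0 to 1 in ara1/2mut (1 without Col-3 replicate 2 or 3), 0 to 2 between the wild types (2 without Col-3 replicate 2), 0 to 2 for the contrast of changes (0 without replicate 2 of Col-0, Col-3 or ara1/2mut) and 4 to 13 in the F test (13 without ara1OX replicate 2 or ara1/2mut replicate 1), and the cause was not tested. The median over the members ran from -0.13 to 0.02 in ara1OX, -0.12 to -0.00 in ara1/2mut, 0.10 to 0.21 between the wild types and -0.04 to 0.14 for the contrast of changes. Of 1535 values of named members, 77 changed sign, 72 of them within 0.2 of 0 in the main analysis. In fits with a filter, 1 (without Col-0 replicate 3) to 4 (without ara1OX replicate 3) tested members had an unadjusted limma p under 0.05 in ara1OX. The number was 0 to 1 in ara1/2mut and 1 to 3 between the wild types (3 in the fit of only these groups). It was 0 to 5 for the contrast of changes and 0 to 3 in the F test. The share of all probe sets moved too. With array weights it was 7.3%, 7.04%, 11.4%, 8.13% and 12.9% in that order, beside 3, 1, 2, 5 and 3 of 23 members. No such share is given for the other settings. With no filter it was 3, 4, 4, 3 and 2 of 45 members, against 1458, 758, 1036, 1199 and 1388 of 22746 probe sets. Low signal limits the 22 members not kept, whose differences under no filter also did not pass after adjustment.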
